A study of Mus musculus with 71 samples.

Results

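Male C57BL/6J mice fed normal chow ad libitum (NC ad lib) were compared 12 h after training in the object recognition memory task (ORM+12 h, 6 mice) with mice that stayed in the home cage and were killed at zeitgeber time 15 (HC zt15, 6 mice), the number of hours after lights on. Both groups are wild type, received the chow from 3 weeks of age and were on it for 12 weeks before the task, and neither was fed on a restricted schedule. Training was a single session of 10 min with a pair of identical objects, so the groups differ in the visit to the arena as well as in what was learned there. The 12 mice were all those of 71 in the series whose labels give this diet and these conditions. In every mouse the dissected hippocampus was used for pS6-TRAP, in which polysomes are pulled down with an antibody to phosphorylated ribosomal protein S6 and the bound mRNA is sequenced. All 30141 genes with at least 10 counts in total over the 71 mice were tested. The comparison asks which mRNAs differ in this fraction in the late phase after training, at about the same time of day.

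Long-term object memory depends on transcription and translation in the hippocampus. A first wave of immediate early genes such as Fos and Egr1 encodes mostly transcription factors and is transient, and later waves encode secreted factors, receptors, scaffolds and cytoskeletal proteins at synapses. S6 is phosphorylated by kinases downstream of mTORC1 and of other growth and activity signals, so pS6-TRAP enriches mRNA from cells in which these signals are on, in addition to mRNA being translated. A value is therefore a share of the captured mRNA of the whole piece of tissue. Fewer captured cells of a type and less mRNA per cell cannot be told apart.

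Total counts were 34698914 to 56879224 in HC zt15 mice (median 49824670) and 47039991 to 56819855 in ORM+12 h mice (median 56404718). Between 21271 and 22559 genes had a count in each mouse. No pair of libraries was a duplicate, since the chi-square per degree of freedom between mice of 1 group was 15.5 to 184 over 30 pairs. Levels are given as counts scaled to 1000000 per mouse after TMM normalization (CPM), with the lowest, the median and the highest of the 6 mice of a group. In ORM+12 h mouse 1, 0.105% of counts fell on mitochondrially encoded genes against 0.0182% to 0.0301% in the other trained mice, and 21.3% on the longest quintile of genes against 23.2% to 23.4%. This library stood apart from the other trained mice in both measures. The number of DEG and the mitochondrially encoded subunits are also given without it. The exon length results and the other gene lists were computed only with it included. The p-values of the model over all genes rest on the spread between mice within groups. This spread was estimated over all 71 mice of 12 groups, not from these 12 mice alone.

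The level of choroid plexus transcripts was checked first, and it differed between the groups. Ttr, which encodes transthyretin, the thyroid hormone carrier made by the choroid plexus epithelium, was at 3908, 13392, 463, 375, 4814 and 15201 CPM in HC zt15 mice 1 to 6 and at 278, 274, 174, 3160, 404 and 242 CPM in ORM+12 h mice 1 to 6. Above 1000 CPM were 4 home cage mice and 1 trained mouse, and the ranges overlapped. On the log2 scale Ttr was 11.53 ± 2.32 in HC zt15 and 8.65 ± 1.51 in ORM+12 h mice (SD, n = 6 each, 2-sided exact permutation test, p = 0.0195, the smallest possible being 0.00216), and in the model over all genes its log2 fold change was -3.07 with an adjusted p of 0.224. All 15 choroid plexus markers had a log2 fold change below 0, from -3.23 for Aqp1 to -1.43 for Otx2, with a median of -2.56, and none was a DEG. The summed level of the 15 markers was 542 to 16746 CPM (median 5159) in HC zt15 and 279 to 3889 CPM (median 400.1) in ORM+12 h mice, and no marker was at 0 in any mouse. Sostdc1 and Steap1 had the smallest unadjusted p of the list (0.00860 and 0.0112). Among the other groups of the series the median Ttr ran from 290.1 CPM in HFS TRF ORM+12 h mice to 6902 CPM in HFS TRF HC zt15 mice. The number of DEG and the size of their changes are therefore also given with the choroid plexus score as a covariate and without the mice of highest Ttr. The score of a mouse is the mean log2 CPM of the 15 markers.

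**Figure D1:**
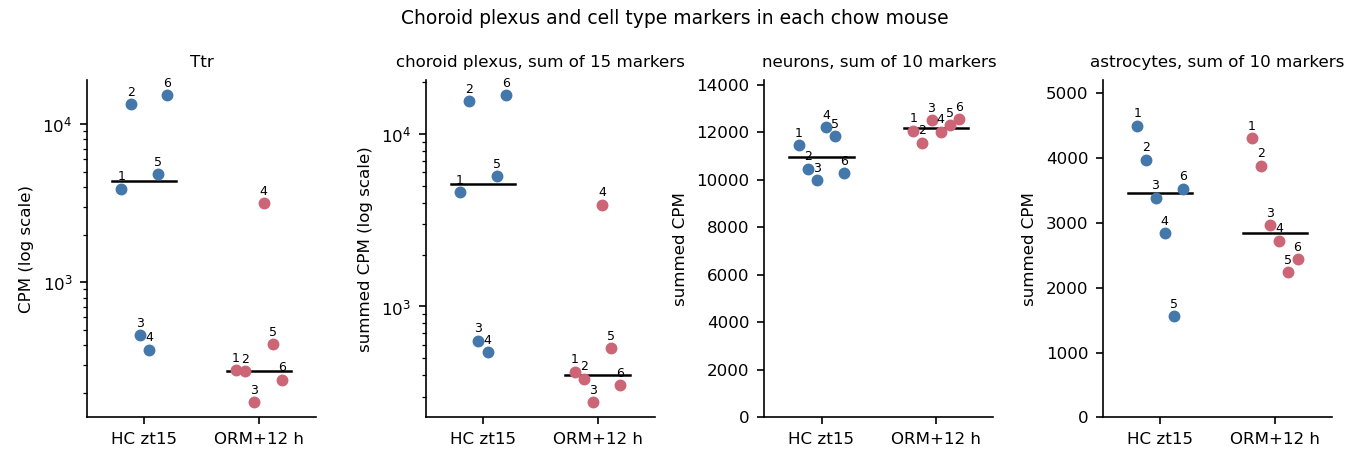
Ttr and the summed choroid plexus markers (CPM, log scale) and the summed neuronal and astrocyte markers (CPM) in each of the 6 HC zt15 and 6 ORM+12 h mice on NC ad lib, one point per mouse with its number and a bar at the group median. Home cage mice 2 and 6 carried the highest Ttr, at 13392 and 15201 CPM, and trained mouse 4 stood above the other trained mice at 3160 CPM.

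The remaining cell type markers mostly had smaller log2 fold changes. Of the 10 neuronal markers 9 had a log2 fold change above 0 (median 0.14), and Map2, a dendritic microtubule-associated protein, was at 708 to 795 CPM (median 764) in HC zt15 and 825 to 972 CPM (median 895) in ORM+12 h mice without overlap, with an adjusted p of 0.128. The hippocampal subfields were all represented, with every one of the 10 dentate granule, 10 CA1 and 10 CA2 and CA3 markers detected in every mouse. The medians were 0.24 for dentate gyrus granule cells, 0.17 for CA1 and 0.08 for CA2 and CA3 pyramidal cells, and Lct was the only marker of any cell type that was a DEG. The dentate list summed to 539 to 742 CPM (median 688) in HC zt15 and 736 to 901 CPM (median 808) in ORM+12 h mice. Prox1, the transcription factor that specifies granule cells, had a log2 fold change of 0.40 at an adjusted p of 0.120, Pou3f1 and Spink8 of the CA1 list 0.42 and 0.30, Rgs14 and Iyd of the CA2 and CA3 list 0.21 and 0.33, and Npy and Reln of the interneuron list 0.29 and 0.20. None of these 7 passed the test.

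Astrocyte markers had a median of -0.19, with 9 of 10 below 0 and Aldh1l1 and Sox9 at -0.58 and -0.56. Ependymal markers had a median of -1.12, led by Pltp (-2.17) and Cfap126 (-1.43), and their sum was 32.7 to 261 CPM in HC zt15 and 26.4 to 97.5 CPM in ORM+12 h mice. Of these 8 markers Tmem212 had a median of 0 CPM in HC zt15 mice, and Ccdc153 was at 0.114 to 1.13 CPM in HC zt15 and 0.0727 to 0.997 CPM in ORM+12 h mice. Meningeal fibroblast markers had a median of -0.43 with Igf2 at -2.54 and Col1a2 at -0.96, and the markers of the thalamus, which borders the dissected tissue, had a median of -0.35 with all 10 below 0 and Lef1 and Tnnt1 at -1.30 and -1.27. Neocortical markers had a median of -0.06, with Cux1 at -0.32 and Cux2 at -0.36. The medians were 0.11 for myelinating oligodendrocytes (Mag 0.29, Ermn 0.32), 0.01 for oligodendrocyte precursors (Matn4 -0.61, Vcan 0.33), 0.26 for microglia (C1qa 0.43, P2ry12 0.35), 0.29 for endothelial cells (Slco1a4 -2.44, Esam 0.29), 0.13 for pericytes and smooth muscle (Abcc9 1.28, Myh11 0.74) and 0.16 for erythrocytes (Alas2 0.32, Hbb-bs 0.16). No marker in this paragraph was a DEG. The part of these cell types in the results that follow was not tested, except for the choroid plexus.

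Between ORM+12 h and HC zt15, 63 of the 30141 genes (0.209%) were differentially expressed (DEG), that is, had a Benjamini-Hochberg adjusted p below 0.05 in the quasi-likelihood F test of edgeR. Of these, 43 were higher at ORM+12 h (0.143%) and 20 were lower (0.0664%). An unadjusted p below 0.05 was reached by 5050 genes (16.8%), 2311 higher (7.67%) and 2739 lower (9.09%). The changes were small. The 40 protein-coding genes that rose did so by 1.19 to 1.70 times (median 1.28), and the 14 protein-coding genes that fell and reached at least 1 CPM did so by 1.23 to 3.38 times (median 1.35). Every one of the 6 trained mice lay above every home cage mouse for 18 of the 43 genes that rose, and below for 7 of the 20 that fell. Over all genes tested such separation was seen for 78 genes in the upward direction (0.259%) and for 55 in the downward direction (0.182%).

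The number of DEG rested on single mice. It was 8, 11, 26, 149, 115 and 1 without HC zt15 mouse 1, 2, 3, 4, 5 and 6, and 249, 51, 9, 83, 1 and 1 without ORM+12 h mouse 1, 2, 3, 4, 5 and 6. The 63 genes kept their direction in each of these 12 fits, except that Gm15564 turned when HC zt15 mouse 6 was left out. Cracdl alone was called in all 12, and the median over both the genes that rose and those that fell was 5 of 12. With the choroid plexus score as a covariate 4 DEG were left, 3 of them among the 63, namely Cracdl, Fstl4 and Gm6311, and the other 60 had adjusted p-values of 0.0733 to 0.205 (edgeR). The 54 protein-coding genes at 1 CPM or more kept 59.3% to 105% of their log2 fold change under this covariate (median 86.85%). Without home cage mice 2 and 6, whose Ttr was highest, no gene was called by edgeR, although 2931 genes had an unadjusted p under 0.05 (smallest adjusted p of the 54 genes 0.195), and those genes kept 69.2% to 111% of their log2 fold change (median 87.5%). With the 12 mice of the comparison alone in the model no gene was called by edgeR, and 3444 genes had an unadjusted p under 0.05. All of the 63 were among these, and the 54 protein-coding genes had log2 fold changes of 95.95% to 105% of those given here. The 63 were chosen in these same mice, so their direction, size and unadjusted p in such refits are no separate support. The DESeq2 Wald test called 303 genes (1.01%) on the full set of mice, 58 of the 63 among them.

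Of the DEG, 9 encode proteins of the cytoskeleton, and all of them rose. The grouping of the DEG by role was made after their values were known and covers called genes alone, so these counts have no background, and of the 24 genes in the list of actin regulators 1 was a DEG. Cracdl, a relative of the capping protein inhibitor Cracd that acts on the growing ends of actin filaments, had the smallest adjusted p of all genes. Its level was 534 to 668 CPM in HC zt15 (median 596) and 731 to 869.7 CPM in ORM+12 h mice (median 792). All trained mice lay above all home cage mice, and its log2 fold change was 0.43 ± 0.07 (SE, adjusted p = 0.00366), or 0.37 with the choroid plexus covariate (adjusted p = 0.0203). Cracdl (ENSMUSG00000026090) lies on the minus strand of chromosome 1 of GRCm39 from 37650755 to 37759408. Its promoter is shown because it is the DEG called in every fit that left out 1 mouse. The 250 bases before the RefSeq start, at chr1:37758893-37759142 of GRCm39 on the minus strand, read as follows, with an E-box and the reverse complement of an EGR site in capitals.
Cracdl: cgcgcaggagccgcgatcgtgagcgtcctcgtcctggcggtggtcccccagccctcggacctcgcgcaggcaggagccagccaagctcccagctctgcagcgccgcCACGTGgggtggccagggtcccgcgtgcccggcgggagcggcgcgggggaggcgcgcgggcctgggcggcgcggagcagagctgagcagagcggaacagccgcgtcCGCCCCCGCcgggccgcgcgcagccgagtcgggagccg

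Map1b, which stabilizes microtubules in growing axons and dendrites, rose with overlapping groups. The 6 home cage mice held 547 to 721 CPM (median 584) and the 6 trained mice 587 to 917 CPM (median 841), and its log2 fold change was 0.40 ± 0.08 (adjusted p = 0.0212). Inf2, a formin that nucleates and severs actin filaments, was at 81.4 to 118 CPM in HC zt15 and 121 to 166 CPM in ORM+12 h mice (log2 fold change 0.48). Wipf3, which binds the actin nucleation factor WASP, was the most abundant DEG. In HC zt15 mice it was read at 1388 to 2091 CPM (median 1905) and in ORM+12 h mice at 2193 to 2568 CPM (median 2341) (log2 fold change 0.37, adjusted p = 0.0346). Mrtfa, the coactivator that carries the state of the actin pool to serum response factor in the nucleus, Inka2, an inhibitor of the kinase PAK4, and Clip1, which binds the plus ends of microtubules, also separated the groups without overlap, with log2 fold changes of 0.30, 0.28 and 0.29. Elmo2, which activates Rac together with DOCK proteins, and Mical2, which oxidizes actin, were higher by 0.26 and 0.30 with overlapping groups. The 9 genes thus lay between 0.26 and 0.48 on the log2 scale.

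**Figure D2:**
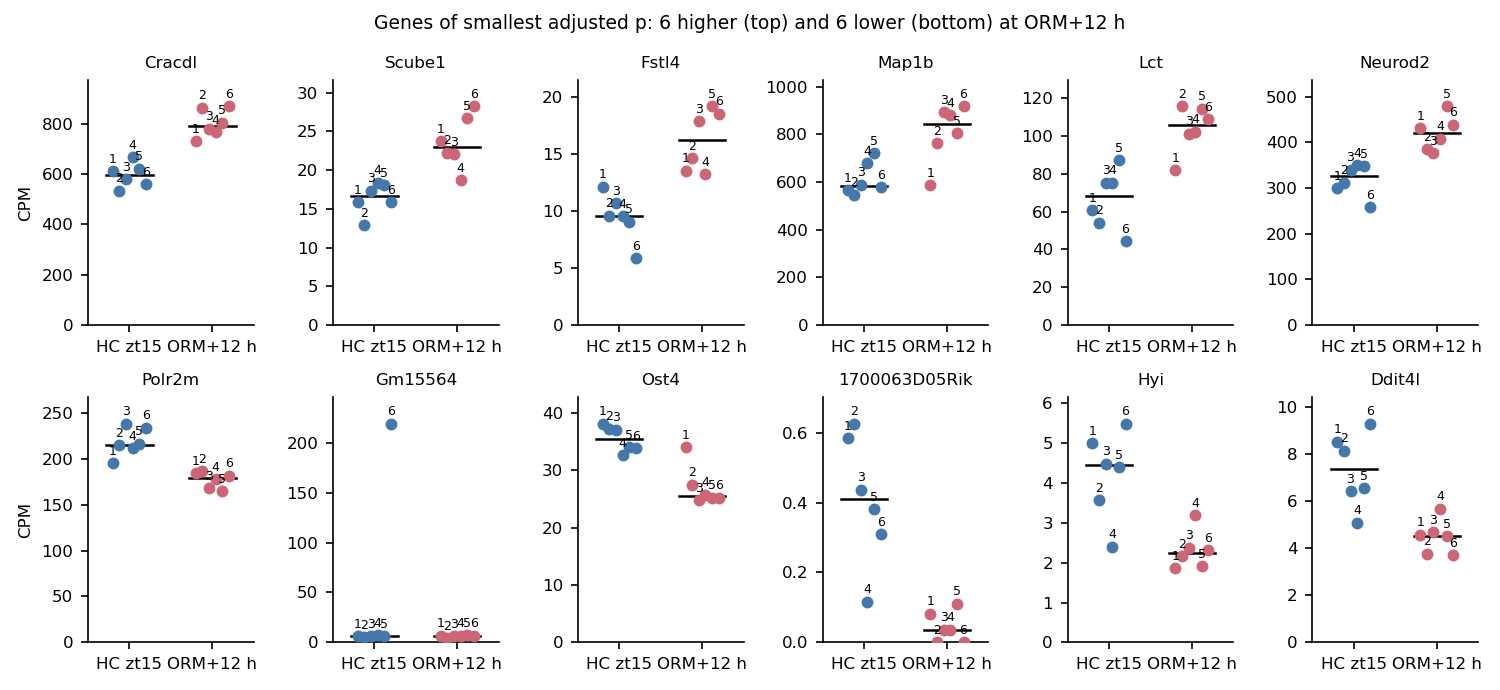
Levels (CPM) of the 6 genes higher (top) and the 6 genes lower (bottom) with the smallest adjusted p, one point per NC ad lib mouse with its number and a bar at the group median. Cracdl separated the groups, with trained mice between 731 and 870 CPM and home cage mice between 534 and 668 CPM.

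The DEG included 4 postsynaptic scaffolds or regulators of small GTPases, and all 4 rose. Tamalin, which ties group I metabotropic glutamate receptors to trafficking proteins, was at 95.3 to 129.6 CPM (median 115) in HC zt15 and 135 to 152 CPM (median 144) in ORM+12 h mice, without overlap (log2 fold change 0.36, adjusted p = 0.0229). Rin1, a Ras effector that activates Rab5 and is enriched in forebrain neurons, also separated the groups. Home cage mice were at 92.2 to 122.9 CPM (median 115) and trained mice at 129.6 to 154 CPM (median 136) (log2 fold change 0.30, adjusted p = 0.0291). The postsynaptic density scaffold Tanc1 had a log2 fold change of 0.44 ± 0.09, with 1 group reaching into the other (113 to 176 CPM in HC zt15, 129 to 231 CPM in ORM+12 h). Sipa1l3, of a family of Rap GTPase activating proteins, had a log2 fold change of 0.34.

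Another 10 DEG belong to kinases, phosphatases, phosphoinositide and lipid signalling and mTORC1 control, 7 higher and 3 lower. The diacylglycerol kinases Dgkh and Dgkd, which turn diacylglycerol into phosphatidic acid, rose by 0.48 and 0.29 on the log2 scale. Dgkh was at 75.3 to 109 CPM in HC zt15 and 108 to 150.4 CPM in ORM+12 h mice, so the highest home cage mouse just passed the lowest trained mouse. Pdpk1, the kinase that activates Akt and S6 kinase, was at 114 to 139.7 CPM (median 122) against 137 to 160.1 CPM (median 154), a log2 fold change of 0.26 ± 0.06. Tsc2, the GTPase activating protein that restrains mTORC1, rose by 0.34, with 85.8 to 110.5 CPM in HC zt15 and 98.1 to 150.03 CPM in ORM+12 h mice. Ddit4l, another inhibitor of mTORC1, fell. Its level was 5.09 to 9.30 CPM in HC zt15 (median 7.35) and 3.72 to 5.69 CPM in ORM+12 h mice (median 4.54) (log2 fold change -0.71 ± 0.15, adjusted p = 0.0291). The 2 mTORC1 inhibitors thus moved in opposite directions. Sbf1, a catalytically inactive member of the myotubularin family, and the kinases Dclk3 and Mast4 rose by 0.35, 0.51 and 0.31, and Dclk3 separated the groups (31.1 to 38.9 against 42.1 to 52.3 CPM). The phosphatase Ppm1m and the pseudokinase Nrbp2 fell, with log2 fold changes of -0.55 and -0.32, and for Nrbp2 the trained mice (46.3 to 57.2 CPM) lay below all home cage mice (59.7 to 66.4 CPM).

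Of 11 DEG for secreted and cell surface proteins 9 rose. Fstl4, a secreted follistatin-like protein, had the largest rise of the protein-coding DEG. The 6 home cage mice held 5.87 to 12.1 CPM (median 9.59) and the 6 trained mice 13.2 to 19.2 CPM (median 16.3), a log2 fold change of 0.77 ± 0.15 (adjusted p = 0.0212, or 0.0475 with the choroid plexus covariate). Scube1, a secreted protein with EGF-like repeats, was at 12.9 to 18.4 CPM in HC zt15 and 18.7 to 28.2 CPM in ORM+12 h mice, again without overlap, a log2 fold change of 0.53 (adjusted p = 0.0212). Lct, the gene of the lactose-cleaving enzyme lactase, is a marker of dentate granule cells in the hippocampus and was fixed in that marker list. In HC zt15 mice it was read at 44.3 to 87.3 CPM (median 67.996) and in ORM+12 h mice at 81.7 to 116 CPM (median 105.6) (log2 fold change 0.65 ± 0.13, adjusted p = 0.0212). Only the lowest trained mouse fell within the home cage range. Sema5a, an axon guidance cue, Il1rap, the co-receptor of the interleukin-1 family, and Kcnj6, the GIRK2 subunit of G protein-gated potassium channels, rose by 0.52, 0.46 and 0.40. Lrrn1, Slc7a14 and Pcdh20 rose by 0.41, 0.38 and 0.35. Prrg2 and the growth factor gene Vegfb fell, with log2 fold changes of -0.57 and -0.42. All trained mice lay below all home cage mice for Prrg2 (3.45 to 4.39 against 5.18 to 8.50 CPM).

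In the nucleus or in RNA silencing act 9 DEG, of which 7 rose. Neurod2, a basic helix-loop-helix transcription factor of excitatory neurons, rose without overlap. Home cage mice were at 258 to 349 CPM (median 326) and trained mice at 377 to 479 CPM (median 419) (log2 fold change 0.40 ± 0.08, adjusted p = 0.0212). Polr2m, a subunit found with a part of RNA polymerase II, was the only called member of the list of RNA polymerase II and Mediator genes, and it fell. Its level was 195 to 238 CPM in HC zt15 (median 215) and 165 to 186 CPM in ORM+12 h mice (median 179) (log2 fold change -0.30, adjusted p = 0.0212). Zfta, Foxk1 and Ago1, the latter an Argonaute protein of microRNA silencing, rose by 0.29, 0.28 and 0.25, each with no overlap between the groups. Pgbd5, Ice1 and Zfp280b rose by 0.28, 0.31 and 0.33 with overlap. Vgll3, a cofactor of TEAD transcription factors, fell with a log2 fold change of -1.75 (1.51 to 7.08 CPM in HC zt15, 0.544 to 1.40 CPM in ORM+12 h), the widest change among protein-coding DEG at 1 CPM or more. HC zt15 mouse 6 held the highest value, with the other home cage mice at 1.51 to 3.68 CPM. With 1 mouse left out the log2 fold change was -1.94 to -1.29, and the adjusted p was highest without HC zt15 mouse 6 (edgeR, 0.181).

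The 5 DEG of organelles and metabolism all fell. Ost4, a small subunit of the oligosaccharyltransferase of the endoplasmic reticulum, was at 32.6 to 38.1 CPM in HC zt15 mice, and the trained mice were at 24.7 to 27.5 CPM except mouse 1 at 34.0 CPM (log2 fold change -0.39, adjusted p = 0.0229). Gpx4, the selenoenzyme that reduces lipid hydroperoxides, was at 132 to 201 CPM (median 165) in HC zt15 and 109.8 to 140.4 CPM (median 127) in ORM+12 h mice (log2 fold change -0.44, adjusted p = 0.0479). Hyi and Tmem242, an assembly factor of mitochondrial ATP synthase, fell with log2 fold changes of -0.88 and -0.33. Etfbl was read in 4 home cage mice with 19 counts in all, 13 of them in 1 mouse, and in no trained mouse. Set against a floor of 6 counts over the trained group, which is 3 read pairs if both mates were counted, it was 3.52-fold lower. This ratio takes the home cage total as it stands and rests largely on that 1 mouse, so it is no lower bound. Of the 7 other protein-coding DEG, Synrg, a partner of the AP-1 clathrin adaptor, rose by 0.27, with home cage mice at 83.0 to 110.2 CPM and trained mice at 117 to 125 CPM. Blnk, Card6 and Fbxo10 rose by 0.69, 0.60 and 0.36. Dgcr6, Cfap68 and Sytl2 fell, with log2 fold changes of -0.31, -0.45 and -0.38.

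The last 8 DEG are long noncoding RNAs, pseudogenes and unassigned transcripts, 3 higher and 5 lower. Gm6311 and Gm8520, processed pseudogenes, had no count in any home cage mouse and 33 and 20 counts in 4 and 5 of the trained mice. Against the same floor of 6 counts per group their totals were 4.95-fold and 3.002-fold higher. Rps19-ps12 had 24 counts in 3 home cage mice, 18 of them in 1 mouse, and none in trained mice. It was 4.44-fold lower against that floor, a ratio that rests largely on that 1 mouse. Reads of processed pseudogenes can come from their parent genes, so these 3 calls are uncertain. Gm15564 rested on 1 mouse, HC zt15 mouse 6, at 219 CPM against 5.15 to 7.37 CPM in the other home cage mice and 4.24 to 7.11 CPM in trained mice, and without that mouse its log2 fold change was 0.02. 1700063D05Rik and Gm42067 fell without overlap, at 0.117 to 0.626 against 0 to 0.111 CPM and at 5.19 to 6.79 against 3.09 to 4.00 CPM. Gm44220 fell with a log2 fold change of -1.13 and Gm10353 rose by 0.72. In total 33 of the 63 DEG overlap another tested gene, and for 18 of them the partner was read at 10% or more of their own level, on the opposite strand in 16 cases and on the same strand in 2. The strand setting of the read counting is not given in the sources used here, so for pairs such as Gm15564 and Kpna1, Ost4 and Agbl5, Tsc2 and Pkd1, or Wipf3 and Scrn1 reads of the partner cannot be told apart from those of the DEG.

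Promoters of 49 of the 63 DEG, 36 that rose and 13 that fell, were found in a RefSeq table built on GRCm38.p6 that covers 250 bases before to 50 bases after the start, and each of the 49 sequences was found once in GRCm39. They were searched on both strands for the E-box CACGTG, the cAMP response element TGACGTCA, the EGR site GCGGGGGCG, the TATA box TATAAA, and the NRF1, YY1, CArG box and MEF2 sites by 1 usual form of each. CACGTG was present in 7 of the 36 promoters of genes that rose (19.4%), in none of the 13 of genes that fell, and in 8.91% of 15931 promoters of tested genes. The EGR site was in 4 of the 36 (11.1% against 4.51% of all promoters) and in 1 of the 13, the cAMP response element in 1 of the 36 (2.78% against 2.59%), and the TATA box in 2 of the 36 (5.56% against 9.52%). Neither the NRF1 site nor the CArG box, the MEF2 site or the YY1 site was in a promoter of a gene that rose, and the YY1 site was in 1 of the 13. GC content had a median of 66.8% in promoters of genes that rose, 62.7% in those of genes that fell and 58.3% over all promoters. The motifs do not overlap one another in the promoters of the DEG. Only the first promoter listed for each gene was searched, so other starts of a gene are not covered. A match is a description of the letters and not of a bound factor.

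The E-boxes outside Cracdl are shown because this was the motif found most often, of those searched, in promoters of genes that rose, together with the single cAMP response element, which lies in Fstl4. The motif is in capitals with 20 bases before it and 8 bases after it on the strand of the gene. A window can lie inside the annotated gene, as for Sipa1l3, which spans 29019797 to 29218066 of chromosome 7. The windows lie at chr11:83855167-83855200 (Synrg, plus strand), chr12:112555135-112555168 (Inf2, plus strand), chr3:31364524-31364557 (Slc7a14, minus strand), chr7:29205057-29205090 (Sipa1l3, minus strand), chr4:45084606-45084639 (Fbxo10, minus strand), chr7:111824858-111824891 (Mical2, plus strand), chr11:52655436-52655471 (Fstl4, plus strand) of GRCm39.
Synrg: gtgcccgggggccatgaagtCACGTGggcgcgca
Inf2: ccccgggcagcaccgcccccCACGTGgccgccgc
Slc7a14: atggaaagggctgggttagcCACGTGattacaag
Sipa1l3: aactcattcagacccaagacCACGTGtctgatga
Fbxo10: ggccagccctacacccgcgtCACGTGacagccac
Mical2: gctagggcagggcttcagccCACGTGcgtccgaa
Fstl4: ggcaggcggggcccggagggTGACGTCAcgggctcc

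Among 22 lists of genes for processes at synapses, in activity and in metabolism, Cracdl in the list of actin regulators and Polr2m in the list of RNA polymerase II and Mediator genes were the only DEG. The direction of the members is therefore given by the log2 fold change and by the count at an unadjusted p under 0.05. Of all genes tested, 45.6% were above 0, 7.67% higher and 9.09% lower at that threshold. A closer background, the 12906 protein-coding genes at 1 CPM or more, had a median of 0.02, with 6965 above 0, 1359 higher and 1271 lower. The median exon length was 6587 bases over these genes and 6951 to 11146 bases in the synaptic lists. The share of genes that were higher grew with exon length, as given below. No list member is called changed unless it is named as a DEG. With the choroid plexus covariate the list medians kept their sign except for the endoplasmic reticulum chaperones, at -0.12 without and 0.13 with it. The medians of the synaptic lists all became smaller, from 0.14 to 0.07 for presynaptic release and from 0.19 to 0.13 for the channels. Nuclear oxidative phosphorylation went from -0.10 to -0.06 and the mitochondrially encoded subunits from -0.54 to -0.63. The other lists moved either way.

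None of the 20 immediate early genes was a DEG. They had a median log2 fold change of 0.03, with 15 above 0 and 1 at an unadjusted p under 0.05, Ier5 (0.28), and Arc, which encodes a protein of postsynaptic AMPA receptor trafficking, was at 166 to 384 CPM in HC zt15 and 212 to 434 CPM in ORM+12 h mice (0.35, adjusted p = 0.357). At ORM+1 h, in other mice, 19 of the 20 were DEG and higher, with a median of 1.51. The 22 late activity-regulated genes had a median of 0.19, with 20 above 0 and 10 higher at an unadjusted p under 0.05 (45.5% of the list). Ptgs2, the inducible cyclooxygenase of excitatory neurons, came nearest to the threshold. The 6 home cage mice held 18.5 to 36.4 CPM (median 24.2) and the 6 trained mice 27.4 to 52.3 CPM (median 34.8) (log2 fold change 0.51 ± 0.14, adjusted p = 0.0751). Plk2, a kinase of homeostatic synaptic scaling, was at 239 to 352 against 335 to 372 CPM (0.27). Bdnf, Nptx2, Scg2, Vgf and Inhba, secreted products of this list, had log2 fold changes of 0.41, 0.59, 0.41, 0.36 and 0.79 with adjusted p-values of 0.127 to 0.177. These 5 were picked from the list after their values were seen.

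The lists of synaptic genes had positive medians, and Cracdl was the only DEG in them. The 23 voltage-gated sodium and calcium channel genes all had a log2 fold change above 0 (median 0.19, 12 at an unadjusted p under 0.05), with Cacna1h at 0.33 and Cacnb1 at 0.20. Of 15 AMPA, NMDA and kainate receptor subunits 14 were above 0 (median 0.16, 7 at an unadjusted p under 0.05). Grin2b, an NMDA receptor subunit, was at 323 to 409 CPM in HC zt15 and 381 to 574 CPM in ORM+12 h mice (0.40, adjusted p = 0.111), and the AMPA receptor subunit Gria2 at 232 to 356 and 353 to 448 CPM (0.32). Metabotropic glutamate receptors had a median of 0.19 with Grm2 at 0.41 and Grm5 at 0.32, and GABA-A receptor subunits a median of 0.18 with 11 of 12 above 0 and Gabrb1 at 0.26. For the 22 postsynaptic scaffolds and adhesion proteins the median was 0.15, with 21 above 0, and Camk2b, a subunit of the calcium/calmodulin-dependent kinase of the postsynaptic density, separated the groups at 1797 to 2177 against 2276 to 2519 CPM (0.25, adjusted p = 0.104), while Dlgap2 was at 0.24. The 22 presynaptic release genes had a median of 0.14 (Rims1 0.23) and the 24 actin regulators a median of 0.13, with 21 above 0 and 11 at an unadjusted p under 0.05, Wasf1 at 0.23 among them. The summed level of the actin regulators, a list that contains Cracdl, was 9628 to 10693 CPM in HC zt15 and 11265 to 12170 CPM in ORM+12 h mice, so these sums did not overlap. No other sum of a cell type or process list was without overlap. The lists were chosen with earlier results of these data known, so this separation is a description.

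**Figure D3:**
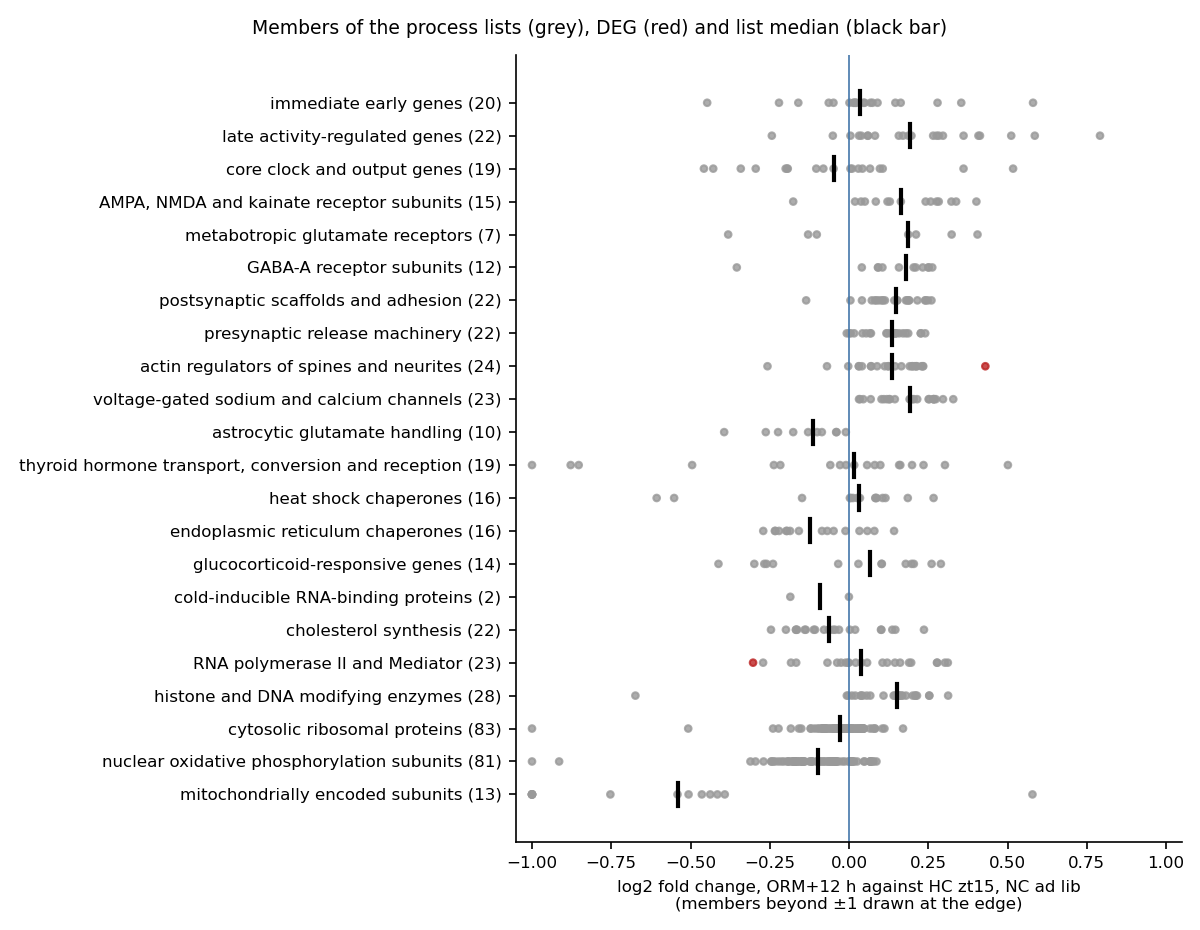
Log2 fold change (ORM+12 h minus HC zt15, NC ad lib) of every tested member of each process list, with the number of members in brackets, DEG in red and the list median as a black bar. Medians lay between 0.13 and 0.19 for the synaptic lists and at -0.54 for the mitochondrially encoded subunits.

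The oxidative phosphorylation lists had medians below 0, and the median of the ribosomal list lay near 0. Their members are short, with a median exon length of 4022 bases for nuclear and 784 for mitochondrially encoded subunits and 2825 for ribosomal proteins. Over the protein-coding genes at 1 CPM or more it was 6587 bases. The 81 nuclear genes of oxidative phosphorylation had a median of -0.10, with 65 below 0 and 25 lower at an unadjusted p under 0.05 (30.9%), and Ndufa2 and Atp5f1e at -0.27 and -0.31. The summed level was 17252 to 21658 CPM (median 18416) in HC zt15 and 17016 to 20409 CPM (median 17132) in ORM+12 h mice, in which mouse 1 was the highest. The 13 mitochondrially encoded subunits had a median of -0.54, and their sum was 233 to 747 CPM in HC zt15, 169 to 260.1 CPM in 5 of the trained mice and 967 CPM in trained mouse 1. Without that mouse the median was -1.21 and 2 members were DEG. mt-Nd3 and mt-Atp8, the members with the smallest unadjusted p, were below 1 CPM in every mouse. The 83 cytosolic ribosomal protein genes tested had a median of -0.03 with an unadjusted p below 0.05 for 3 lower members and no higher one (Rps27l -0.51, Rps29 -0.24). These 3 are 3.61% of the list, against 9.09% lower over all genes tested.

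The astrocytic glutamate handling genes were all below 0 (10 of 10, median -0.11), with none at an unadjusted p under 0.05, and Slc25a18 and Glul, the glutamine synthetase, at -0.39 and -0.26. At ORM+1 h all 10 were DEG and higher with a median of 1.38. For the 19 genes of thyroid hormone transport, conversion and reception the median was 0.02, 5 were higher and 4 lower with an unadjusted p below 0.05, and the corepressor Ncor1 (0.23, adjusted p = 0.0696) and the coactivator Ncoa1 (0.20) had the smallest p. The transporter Slco1c1 and the inactivating deiodinase Dio3 were at -1.79 and -0.85 (adjusted p 0.177 and 0.252). Both were named after their values were seen, and the choroid plexus markers also had log2 fold changes below 0. The 19 core clock and output genes had a median of -0.05, with Bmal1 at 0.36 and Ciart at -0.46 (adjusted p = 0.101 and 0.145). Both groups are labelled with the same zeitgeber time, but the paper gives that of the trained mice as approximate. Medians were 0.03 for heat shock chaperones (Dnajb5 0.27, Cryab -0.55), -0.12 for endoplasmic reticulum chaperones (Ddit3 -0.23, Dnajb9 -0.20), 0.07 for glucocorticoid-responsive genes (Nr3c2 0.29, Errfi1 0.26), -0.09 for the cold-inducible Rbm3 and Cirbp, -0.06 for cholesterol synthesis (Hsd17b7 0.24, Nsdhl -0.25), 0.04 for RNA polymerase II and Mediator (Med24 0.19) and 0.15 for histone and DNA modifying enzymes (Kat2a 0.21, Ehmt2 0.15). For Kat2a, a histone acetyltransferase, the trained mice (86.1 to 107 CPM) lay above all home cage mice (76.6 to 84.8 CPM).

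The direction of change moved with exon length, taken as the merged exons of all annotated transcripts of a gene and not as the length of any 1 transcript. When the 12906 protein-coding genes at 1 CPM or more were divided into quintiles by exon length, the share higher at an unadjusted p under 0.05 was 3.99%, 8.37%, 9.95%, 12.2% and 18.1% from the shortest to the longest quintile, and the share lower was 14.3%, 10.8%, 10.4%, 7.67% and 6.05%. Of the DEG in these quintiles, 18 of the 40 that rose were in the longest and 8 of the 14 that fell in the shortest. The median exon length was 10244 bases for protein-coding genes that rose and 3429 bases for those that fell. The longest quintile took 21.0 to 23.3% of counts in HC zt15 and 21.3 to 23.4% in ORM+12 h mice, 22.2 ± 0.82% and 23.0 ± 0.81% (SD, n = 6 each, 2-sided exact permutation test, p = 0.139). ORM+12 h mouse 1 was at 21.3% and the other trained mice at 23.2 to 23.4%, a range that only HC zt15 mouse 4 reached. The test was not run without ORM+12 h mouse 1, so its p-value does not show that the shares were alike. The choroid plexus amount, the share of long genes and training cannot be told apart in these 12 mice beyond the fits given above.

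**Figure D4:**
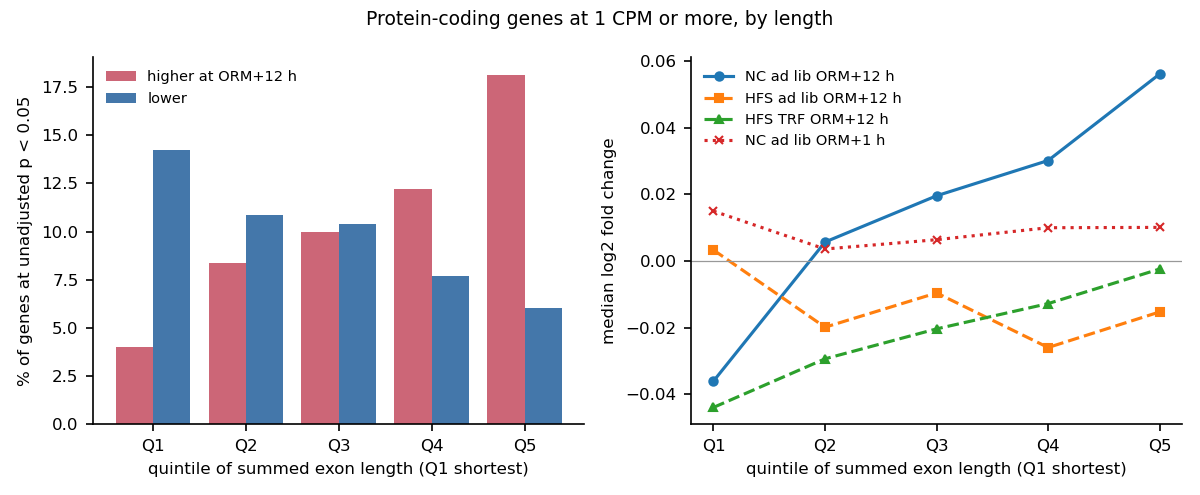
Share of protein-coding genes (percent) higher or lower at ORM+12 h at an unadjusted p under 0.05, by quintile of exon length from shortest to longest, in NC ad lib mice. The share higher ran from 3.99% to 18.1% and the share lower from 14.3% to 6.05%.

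The early phase after the same task was measured in other mice. In NC ad lib mice of the first experiment, 1727 genes (5.73%) were DEG between ORM+1 h and HC zt3, 1215 higher (4.03%) and 512 lower (1.7%), against 63 at ORM+12 h. Of the 63, 2 were DEG at ORM+1 h, both in the opposite direction. Rin1 fell at ORM+1 h with a log2 fold change of -0.32 (adjusted p = 0.000452) and rose at ORM+12 h with 0.30. Pgbd5 fell with -0.21 (adjusted p = 0.0357) and rose with 0.28. Of the 43 genes that rose at ORM+12 h, 30 had a log2 fold change below 0 at ORM+1 h (median -0.05), against 48.4% of all genes, and of the 20 that fell, 15 were above 0 (median 0.06). The protein-coding genes at 1 CPM or more had a median of 0.01 at ORM+1 h. Their shares above and below 0 were not counted, so these counts are a description. The mice of the 2 time points and of their home cage controls are different animals.

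The other diets had their own home cage mice. In mice on a diet high in fat and sucrose (HFS) ad lib, 54 genes were DEG between ORM+12 h and HC zt15 (0.179%), and in HFS mice on time-restricted feeding (HFS TRF, with 5 home cage mice) 741 were (2.46%). Of the 43 genes that rose in NC ad lib mice, none was a DEG in HFS ad lib mice (29 above 0, median 0.08) and 1 was in HFS TRF mice, Zfta (0.26, adjusted p = 0.0265), with 31 above 0 and a median of 0.11. Of the 20 that fell, 13 were above 0 in HFS ad lib mice (median 0.09) and 5 in HFS TRF mice (median -0.11). Cracdl was at 0.18 (adjusted p = 0.232) in HFS ad lib and at 0.19 (adjusted p = 0.144) in HFS TRF mice. Since the 63 genes were chosen by their change in NC ad lib mice, smaller values elsewhere are no test of a difference between diets.

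The difference itself was tested as the change at ORM+12 h in HFS ad lib minus that in NC ad lib mice. It passed for 32 genes (0.106%), 18 positive and 14 negative, and 9 of the 63 were among them. Because the NC ad lib mice enter both this test and the choice of the 63, the 9 are a description. They were the risen genes Map1b (-0.53, adjusted p = 0.0326), Synrg (-0.42, adjusted p = 0.0150) and Gm6311, and the fallen genes Polr2m (0.41), Ost4 (0.58), Dgcr6 (0.42), Cfap68 (0.69), Prrg2 (0.82) and Gpx4 (0.75). For all 9 the sign of the difference was opposite to the change in NC ad lib mice. In HFS ad lib mice Map1b had a log2 fold change of -0.13 and Gpx4 one of 0.31, against 0.40 and -0.44 in NC ad lib mice. The median Ttr in HFS ad lib mice was 599.7 CPM at HC zt15 and 4898 CPM at ORM+12 h, the reverse order of the NC ad lib mice, and with the choroid plexus covariate 2 genes passed. For HFS TRF minus NC ad lib no gene passed in edgeR (smallest adjusted p 0.0586, 4070 genes or 13.5% at an unadjusted p under 0.05), none in limma voom and 98 in DESeq2.

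**Figure D5:**
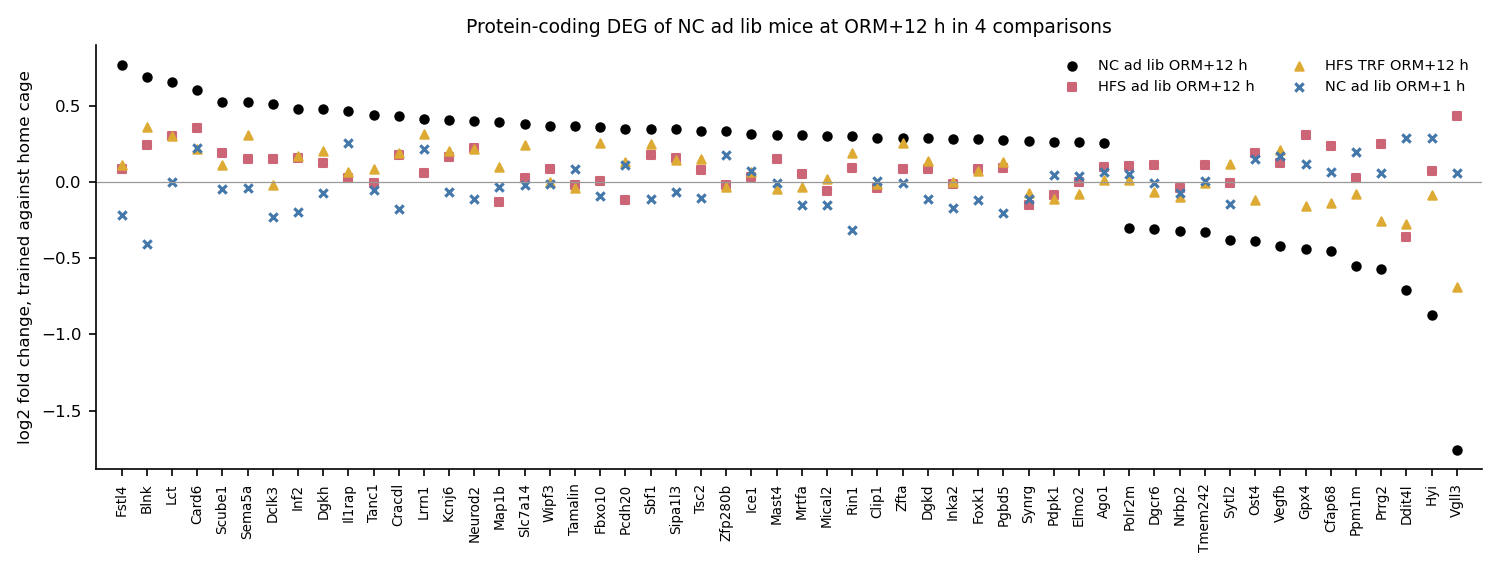
Log2 fold change (trained minus home cage) of the 54 protein-coding DEG at 1 CPM or more, one position per gene, in NC ad lib mice at ORM+12 h (black), HFS ad lib and HFS TRF mice at ORM+12 h and NC ad lib mice at ORM+1 h. The genes were chosen by the black points, from which the other points lie apart toward 0 or beyond.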

How the data were processed

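The authors purified mRNA bound to ribosomes with phosphorylated S6 from dissected hippocampus, sequenced paired-end stranded libraries, trimmed reads (Trim Galore 0.6.7, cutadapt 3.4), aligned them with HISAT2 2.2.0 and assigned them to genes with featureCounts of Subread 2.0.3, per their methods and the submitters' processing notes, on GRCm39 (the notes also name mm9). The deposited values are raw counts, 57010 genes by 71 mice, of which 81.4% to 85.7% were even in each chow mouse of zt15, so both mates of a pair may have been counted, which would make a read pair 2 counts. After TMM normalization, edgeR 4.0.16 was used to fit 1 model (quasi-likelihood, 12 groups, R 4.3.3) for 30141 genes with at least 10 counts in total, with Benjamini-Hochberg adjustment and a threshold of 0.05. DESeq2 1.42.0 and limma 3.58.1 were alternatives, with other filters, subsets of mice, a choroid plexus covariate and each mouse left out. Fits without mice of high Ttr were chosen after seeing the data. The model was tested on simulated data (29386 genes, 130 of 200 changed genes recovered, 7 false calls). Genes were simulated independently, without a source of variation shared between genes such as the choroid plexus content. The number of false calls therefore does not carry over to these data. Members and gene lists were chosen with earlier results of these data known. Named are the 15 genes higher and 12 lower with the smallest adjusted p, called genes in a fixed list, 2 members of each list with the smallest unadjusted p, Ttr and the choroid plexus markers, and calls that rest on 1 mouse, with the other DEG by role. Floors and intervals cover counting error only, and a floor covers that of the group at 0 alone.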

Additional observations from a re-analysis of the deposited data

Results flagged for a closer look

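The genes named in the report were screened in each group of 6 mice for a single mouse far from the other 5, and 39 of 302 such groups over 151 genes were marked by Dixon's test, which marks about 1 in 20 groups by chance. Of the 39, 18 lay in 1 trained mouse. In ORM+12 h mouse 4 Ttr was at 3160 CPM (other trained mice 174 to 404 CPM), and Folr1 at 25.69, Kl at 162.2, Clic6 at 275.3, Kcnj13 at 19.1, Aqp1 at 14.35, Otx2 at 53.25, Sostdc1 at 18.91, Cldn2 at 15.41, Slc4a5 at 22.26, Kcne2 at 26.6, Prlr at 11.45, Calml4 at 32.56, F5 at 48.11 and Steap1 at 3.743 CPM were each above all other trained mice. These are the 15 choroid plexus markers, which share the same epithelium and are not 15 separate observations. In the same mouse Pltp was at 26.2, Cfap126 at 11.01 and Igf2 at 3.597 CPM.

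In ORM+12 h mouse 1 Ost4 was at 34.01 CPM (others 24.7 to 27.5), Ndufa2 at 121.9 CPM (others 85.0 to 93.6), Ice1 at 46.7 CPM (others 53.8 to 56.7) and Ncoa1 at 166.7 CPM (others 206 to 224). This is the trained mouse with the highest share of mitochondrially encoded counts and the lowest share of counts on long genes, and the part of these shares in the values was not tested. ORM+12 h mouse 2 had Rgs14 at 303.8 CPM, Gm15564 at 4.245 CPM and mt-Nd3 at 0.03597 CPM, and ORM+12 h mouse 6 had C1qa at 19.67, Lef1 at 8.522 and Tnnt1 at 5.44 CPM.

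Of the home cage mice, HC zt15 mouse 6 had Gm15564 at 219.2 CPM (others 5.15 to 7.37), Gria2 at 231.5 CPM (others 311 to 356), Grm5 at 60.29 CPM (others 97.7 to 109), Ehmt2 at 308.2 CPM and Prrg2 at 8.502 CPM. HC zt15 mouse 2 had Cfap126 at 33.67, Cryab at 111.9, Myh11 at 0.8609 and Etfbl at 0.2543 CPM. Synrg was at 83.02 CPM in HC zt15 mouse 3 (others 100.1 to 110.2), and Rps19-ps12 at 0.3185 CPM in HC zt15 mouse 1.

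For 9 DEG the interaction of training with diet, HFS ad lib set against NC ad lib, passed in edgeR after Benjamini-Hochberg adjustment. The difference in log2 fold change, HFS ad lib minus NC ad lib, was -0.5275 for Map1b, -0.4169 for Synrg, -6.0727 for Gm6311, 0.4054 for Polr2m, 0.5808 for Ost4, 0.423 for Dgcr6, 0.6872 for Cfap68, 0.8216 for Prrg2 and 0.7514 for Gpx4. The NC ad lib mice that made these genes DEG are part of the same term. The value of Gm6311 is a fitted one, since it had no count in NC ad lib home cage mice.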

How the results depend on the processing

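The count of DEG at ORM+12 h, 63, became 303 with the DESeq2 Wald test, 124 with filterByExpr, 0 with only the groups compared, 0 with only the second experiment and 4 with the choroid plexus score as a covariate. Chosen after seeing the data, leaving out the 2 home cage mice of highest Ttr gave 0, and leaving out the 5 mice with Ttr over 1000 CPM gave 0. In these fits 62 and 56 of the 63 had an unadjusted p under 0.05, but the 63 were chosen in the same mice. Leaving out 1 mouse at a time gave 1 to 249. Counts within 1.5 times came from DESeq2 size factors (66), protein-coding genes alone (65), robust dispersion (62), limma voom (83) and at least 1 count in total (43). The share of DEG that were higher was 80.7% with limma voom and 58.5% for protein-coding genes alone, against 68.3%, and 15.7% with the replicate block and only the groups compared.

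The interaction of training with HFS ad lib against NC ad lib, 32 genes, became 615 with DESeq2, 17 with at least 1 count in total, 73 with filterByExpr, 0 with only the groups compared, 0 with only the second experiment and 2 with the covariate, and 2 to 1255 when 1 mouse was left out. That of HFS TRF against NC ad lib, 0 genes, became 98 with DESeq2, 4 with filterByExpr and 8 with the covariate, and 0 to 142 when 1 mouse was left out. The DEG shared with ORM+1 h, 2, became 47 with DESeq2, 10 with filterByExpr, 10 with limma voom, 4 for protein-coding genes alone, 0 with only the groups compared, 0 with only the second experiment, 0 with the covariate, 0 without the 2 home cage mice of highest Ttr and 0 without the 5 mice with Ttr over 1000 CPM, and 0 to 20 when 1 mouse was left out. The cause of these shifts was not tested.

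Replicate numbers gave no sign of pairing. Deviations from the group mean of same-numbered mice had correlations of -0.48 to 0.23, and 1 of 6 home cage mice correlated best with the trained mouse of its own number. With the replicate block the counts were 157 DEG (all 71 mice, 34 lower and the rest higher) and 337 (only the groups compared, 53 higher and 284 lower, 25 of the 63 among them), 143 and 588 (534 positive and 54 negative) for HFS ad lib minus NC ad lib, 9 for HFS TRF minus NC ad lib with only the groups compared, and 6 and 117 for DEG shared with ORM+1 h.

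Steap1, Ttr, Kl, Clic6, Otx2, Kcne2, Prlr, Calml4 and F5 are members of the choroid plexus score, so the covariate takes out most of their change by construction. Under the covariate the log2 fold change was 0.1987 for Steap1, 0.0156 for Cfap126, 0.1641 for Igf2, 0.0096 for Col1a2, 0.0721 for Ttr, 0.0463 for Kl, 0.1008 for Clic6, 0.2125 for Otx2, 0.0372 for Kcne2, 0.2018 for Prlr, 0.0961 for Calml4 and 0.0446 for F5. Without the 5 mice with Ttr over 1000 CPM it was 0.3055 for Steap1, 0.1607 for Prlr, -0.2354 for Alas2, -0.3875 for Hbb-bs, -0.0554 for Errfi1, 0.1597 for Nsdhl and 0.1073 for Cirbp. Gm15564 was at 0.0210 without HC zt15 mouse 6, and between -2.9563 and that value when each mouse was left out. Cirbp, at -0.0005, was at 0.0009 with DESeq2, 0.0008 with DESeq2 size factors, 0.0135 with filterByExpr, 0.0133 with only the groups compared, 0.0041 with only the second experiment, 0.0483 without the 2 home cage mice of highest Ttr, and, for each mouse left out, -0.1331 to 0.0861, being above 0 without HC zt15 mouse 1 (0.0535) or 2 (0.0846) or ORM+12 h mouse 3 (0.0096), 4 (0.0169), 5 (0.0233) or 6 (0.0861). With 6 mice a group and counts simulated independently for each gene, 17 of 50 genes changed 1.3-fold and 41 of 50 changed 2-fold were recovered by edgeR.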
